A study of Mus musculus with 8 samples.

Results

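The imprinted genes described here are Dlk1, Meg3, H19, Peg3, Mest, Plagl1, Ndn, Snrpn and Grb10, and their members on the array are the non-control probes that carry one of these gene names, with Meg3 written Gtl2 in the scanner files. That rule found 21 probes for the 9 genes among 41174 probes in all. Of these 21, 20 passed the filter on dim probes and were tested. The exception, the Peg3 probe A_52_P1131620, was not well above background on any of the 8 arrays. Each array held labelled RNA from testes of mice at postnatal day 8, 4 of them wild type and 4 VRK1-deficient. The VRK1-deficient mice carried a β-geo gene trap inside intron 3 of Vrk1, which lowers full-length Vrk1 without removing it. The trap came from a single embryonic stem cell clone and was crossed repeatedly to C57BL/6, and whether DNA of that cell line remained beside Vrk1 on chromosome 12 was not tested. The sources used here do not say whether the wild type animals were littermates, or whether any sample pooled several animals.

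Imprinted genes are expressed mainly from the copy inherited from one parent. The choice is set by DNA methylation that is placed on control regions in the germ line, erased in primordial germ cells and written again according to sex, so a testis holds both somatic cells with the inherited pattern and germ cells with a newly written paternal one. Many imprinted genes act on fetal and early postnatal growth, and many fall in level in somatic tissues after birth. Dlk1, Peg3, Mest, Plagl1, Ndn and Snrpn are expressed from the paternal copy, whereas Meg3 and H19 are maternally expressed long non-coding RNAs and Grb10 is maternally expressed in most tissues. Dlk1 and Meg3 are neighbours in 1 imprinted domain on chromosome 12, on the same chromosome as Vrk1. The arrays measured total transcript signal, with no information on methylation or on which parental copy a transcript came from.

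The probes that carry the comparison between the chromosome 12 genes and the rest are printed 5′ to 3′ as the array holds them, with coordinates in the mm7 build of the scanner files. Dlk1 was read by probes at chr12:106981689-106981748 and chr12:106981450-106981509, and Meg3 by 5 probes spread over 21.8 kb, of which the brightest lies at chr12:107092697-107092756. H19 was read at chr7:139003144-139003203 and Mest, whose single probe had the lowest adjusted p among the members, at chr6:30680425-30680484. These probe sequences have no base singled out and are in lower case throughout.
Dlk1 A_51_P135618: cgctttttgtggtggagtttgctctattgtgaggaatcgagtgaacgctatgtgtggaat
Dlk1 A_52_P177324: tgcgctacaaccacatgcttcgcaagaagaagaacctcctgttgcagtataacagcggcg
Meg3 A_51_P455997: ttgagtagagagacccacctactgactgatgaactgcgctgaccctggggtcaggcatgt
Meg3 A_52_P391505: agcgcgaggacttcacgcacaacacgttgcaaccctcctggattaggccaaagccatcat
H19 A_51_P142196: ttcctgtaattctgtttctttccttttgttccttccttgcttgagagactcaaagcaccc
Mest A_51_P124535: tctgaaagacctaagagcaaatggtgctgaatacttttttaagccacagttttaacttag

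Snrpn was read by a pair of probes on the minus strand, at chr7:55735092-55735151 and chr7:55735109-55735168, which share 43 positions. Within that overlap their letters differed at 2 positions, G9A and A12G, counted from 1 at the 5′ end of A_52_P354390 with its base first. The differing bases are in capitals. Snrpn encodes SmN, a core protein of spliceosomal particles, and has a near-identical paralog, Snrpb, so how much of the signal of either probe came from Snrpn alone is uncertain.
Snrpn A_52_P354390: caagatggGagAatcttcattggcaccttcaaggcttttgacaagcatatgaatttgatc
Snrpn A_51_P168862: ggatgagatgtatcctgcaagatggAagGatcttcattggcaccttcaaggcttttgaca

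Imprinted promoters are often rich in CG dinucleotides, the sites of DNA methylation, and the 250 bases before the RefSeq start of 3 members are printed with CG in capitals. They are taken from GRCm38.p6, plus strand, at chr12:109452573-109452822 for Dlk1, chr12:109540746-109540995 for Meg3 and chr6:30737800-30738049 for Mest, and where a gene has several starts the window with the most CG is shown. These stretches hold 8, 10 and 14 CG, in that order. In the full windows of 300 bases, which reach 50 bases past the start, Dlk1 had 9, Meg3 13 and Mest 17, against a median of 7 over 32817 mouse windows. As many CG as in the Dlk1 window were found in 45.8% of windows, as many as in the Meg3 window in 37.9% and as many as in the Mest window in 31.4%. The palindrome GGGGCCCC, a core motif of the Plagl1 protein that reads the same on both strands, occurred in the Peg3 window, and in 1.07% of all windows. Of the 15 windows of the 8 members in the table, the other 14 lacked these letters.
Dlk1 promoter: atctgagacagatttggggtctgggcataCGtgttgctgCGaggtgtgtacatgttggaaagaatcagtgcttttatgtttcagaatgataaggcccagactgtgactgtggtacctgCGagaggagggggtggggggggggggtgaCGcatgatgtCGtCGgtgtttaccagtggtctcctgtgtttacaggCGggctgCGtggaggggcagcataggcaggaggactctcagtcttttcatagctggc
Meg3 promoter: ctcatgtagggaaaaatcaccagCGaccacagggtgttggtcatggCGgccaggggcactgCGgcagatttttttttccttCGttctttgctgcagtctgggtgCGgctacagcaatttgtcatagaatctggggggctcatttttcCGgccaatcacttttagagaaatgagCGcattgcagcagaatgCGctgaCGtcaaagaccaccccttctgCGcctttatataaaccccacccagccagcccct
Mest promoter: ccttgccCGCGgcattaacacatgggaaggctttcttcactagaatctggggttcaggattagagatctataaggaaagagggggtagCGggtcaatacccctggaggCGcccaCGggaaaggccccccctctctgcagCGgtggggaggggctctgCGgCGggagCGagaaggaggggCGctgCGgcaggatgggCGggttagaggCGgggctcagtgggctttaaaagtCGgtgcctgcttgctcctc

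Signals are given as log2 relative to the 75th percentile of each array, and a change is the VRK1-deficient mean minus the wild type mean, n = 4 each. A probe was called when its limma adjusted p was under 0.05 over all 26948 tested probes. Vrk1, the trapped gene, was low on every array labelled VRK1-deficient: its probe A_52_P555672 read -0.57, -0.50, 0.07 and -0.18 in wild type replicates 1 to 4 and -4.16, -4.19, -4.30 and -4.27 in VRK1-deficient replicates 1 to 4. The change of that probe was -3.93 ± 0.15 (SE, limma adjusted p = 2.1e-05), and the other Vrk1 probe gave -4.0. The arrays lay on 2 slides, each holding 2 wild type arrays at positions 1 and 2 and 2 VRK1-deficient arrays at positions 3 and 4, so array position and genotype cannot be told apart. Between 63.6% and 69.5% of non-control spots were well above background per array, and none was saturated. Across all tested probes 986 were called, 451 of them higher and 535 lower in VRK1-deficient testes, a split that became 64 higher and 852 lower with signals not scaled between arrays.

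Wild type replicate 1 stood apart from the other wild type arrays in ways that touch the members. Averaged over the 9 genes, the member signal was 2.52 in that array, 2.11 to 2.26 in the other 3 wild type arrays and 2.65 to 2.88 in the VRK1-deficient arrays. It was the highest wild type array for 15 of the 20 tested member probes. The summed signal of 10 germ cell markers, in multiples of the 75th percentile, was 70.2 in wild type replicate 1, 117 to 158 in the other wild type arrays and 47.2 to 75.6 in VRK1-deficient arrays. Without wild type replicate 1, 28.4% of all tested probes were called in place of 3.66%. The calls of the member probes, and the counts of calls in each list, are therefore given with and without that array.

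Of the 9 imprinted genes, each represented by its brightest probe, all 9 had a higher mean in VRK1-deficient testes and 1, Mest, was called. Among all genes by brightest probe 4.09% were called, 1.88% as higher and 2.21% as lower. Over the member probes, 19 of 20 had a positive change and 1 of 20 was called, where 54.5% of all tested probes had a positive change and 3.66% were called. The VRK1-deficient values lay wholly above the wild type values for 7 of the 20 probes, against 9.4% of all tested probes. At a limma unadjusted p under 0.05 there were 12 of 20 member probes, all of them higher, where 28.8% of all tested probes passed in either direction and 14.1% as higher. The median change of the 9 genes was 0.53, beside 0.04 over all tested genes. A positive change was thus more frequent among the members than over the array, while the adjusted p reached the threshold for 1 gene. The members share the same 8 arrays and are not independent of each other. They were also chosen with earlier results of these data known, which limits the comparison with the array.

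**Figure D1:**
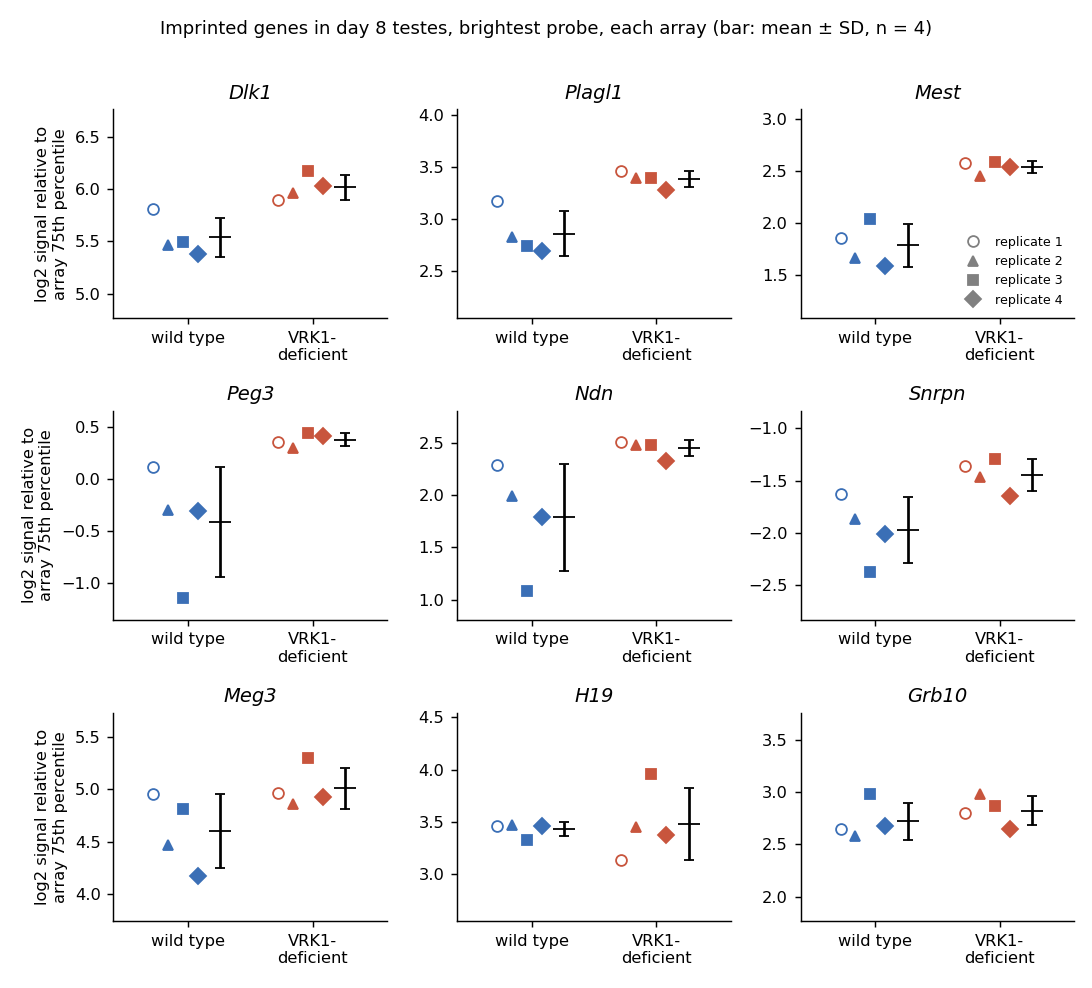
Signal of each imprinted gene (brightest probe, log2 relative to the array 75th percentile) in the 4 wild type (blue) and 4 VRK1-deficient (red) arrays, every panel spanning 2 log2 units. Symbols mark the replicate number, which was not taken as a pairing of samples, and the bar is mean ± SD. Dlk1, Plagl1, Mest, Peg3 and Ndn show no overlap between genotypes, while H19 and Grb10 overlap fully.

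Mest, which encodes a membrane protein of the alpha/beta hydrolase fold associated with growth of mesodermal tissue, rose in VRK1-deficient testes. Its probe A_51_P124535 read 1.86, 1.67, 2.04 and 1.59 in wild type replicates 1 to 4 and 2.58, 2.46, 2.59 and 2.54 in VRK1-deficient replicates 1 to 4. Every VRK1-deficient array was above the highest wild type array, and the VRK1-deficient arrays were close together. The change was 0.75 ± 0.13 (SE), a 1.68-fold difference with a limma adjusted p of 0.041. It was the same size on both slides, at 0.75 each. Leaving out any one array kept the change between 0.68 and 0.83. The call was kept without wild type replicate 1 (limma adjusted p = 0.0061) or wild type replicate 3 (limma adjusted p = 0.046), but not without any one of the other 6 arrays, where the limma adjusted p ran from 0.073 to 0.14.

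Dlk1 encodes a transmembrane protein related to Notch ligands that holds progenitor cells undifferentiated. Probe A_51_P135618 read 5.81, 5.47, 5.50 and 5.38 in wild type and 5.90, 5.96, 6.18 and 6.03 in VRK1-deficient replicates 1 to 4. The groups did not overlap, with wild type replicate 1 lying nearest to the VRK1-deficient arrays. The change of 0.48 ± 0.13 (SE) had a limma adjusted p of 0.063 and was not called. Its other probe, A_52_P177324, gave a change of 0.53 ± 0.17 (SE, limma adjusted p = 0.089), with 3 of 4 VRK1-deficient arrays above the highest wild type array. Without wild type replicate 1 the changes of the Dlk1 probes were 0.57 and 0.69, and both were called (limma adjusted p = 0.0088 and 0.0061).

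Meg3, the non-coding RNA made from the maternal copy of the same domain, varied more between wild type arrays. Its brightest probe, A_51_P455997, read 4.96, 4.47, 4.82 and 4.17 in wild type and 4.96, 4.86, 5.30 and 4.92 in VRK1-deficient replicates 1 to 4. Wild type replicate 1 was as high as the VRK1-deficient arrays, and the groups overlapped. The change was 0.41 ± 0.19 (SE), with a 95% interval of -0.02 to 0.83 and a limma adjusted p of 0.19. The 4 dimmer Meg3 probes had changes of 0.50 to 0.67 with limma adjusted p from 0.13 to 0.20, so all 5 probes moved the same way and none was called. When wild type replicate 1 was left out, the brightest Meg3 probe had a limma adjusted p of 0.057, and the 4 dimmer probes, at 0.68 to 0.93, were called with limma adjusted p from 0.0059 to 0.023.

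Plagl1, a zinc finger transcription factor that restrains cell cycle progression, had levels tightly grouped in VRK1-deficient testes. Probe A_52_P532456 read 3.17, 2.83, 2.74 and 2.69 in wild type and 3.46, 3.40, 3.40 and 3.28 in VRK1-deficient replicates 1 to 4. The groups did not overlap, and wild type replicate 1 was again the highest of its group. The change was 0.53 ± 0.13 (SE, limma adjusted p = 0.056), and the second Plagl1 probe gave 0.47 ± 0.15 (SE, limma adjusted p = 0.082). Leaving out wild type replicate 1 made both probes called ones (limma adjusted p = 0.0053 and 0.0090).

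Peg3 encodes a large zinc finger protein linked to growth and maternal behaviour, and Ndn encodes necdin, a growth-restraining protein of the MAGE family. The Peg3 probe A_51_P206037 read 0.11, -0.30, -1.15 and -0.31 in wild type and 0.36, 0.29, 0.44 and 0.41 in VRK1-deficient replicates 1 to 4. No VRK1-deficient array reached down to the wild type range, which was wide because of the low value in replicate 3. The Peg3 change, at 0.79 ± 0.23 (SE), was the largest among the 9 brightest probes, yet its limma adjusted p was 0.076. The second Peg3 probe gave 0.55 ± 0.19 (SE, limma adjusted p = 0.10). The Ndn probe A_52_P451644 read 2.29, 1.99, 1.08 and 1.79 in wild type and 2.51, 2.48, 2.48 and 2.33 in VRK1-deficient replicates 1 to 4, again without overlap and with replicate 3 the lowest wild type array. Its change was 0.66 ± 0.23 (SE, limma adjusted p = 0.10). Both genes were called without wild type replicate 1, the Peg3 probes at limma adjusted p of 0.013 and 0.017 and Ndn at 0.020.

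Snrpn, as read by A_52_P354390, was -1.63, -1.87, -2.38 and -2.02 in wild type and -1.36, -1.47, -1.29 and -1.64 in VRK1-deficient replicates 1 to 4. Replicate 4 of the VRK1-deficient group fell just inside the wild type range, so 3 of 4 VRK1-deficient arrays were above every wild type array. The overlapping probe A_51_P168862 showed no overlap. The changes of 0.53 ± 0.17 and 0.57 ± 0.16 (SE) had limma adjusted p of 0.086 and 0.072. Both were called without wild type replicate 1 (limma adjusted p = 0.017 and 0.0078).

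H19 and Grb10 had the smallest changes of the 9 genes. H19, a maternally expressed non-coding RNA abundant in fetal tissue, read 3.46, 3.47, 3.33 and 3.46 in wild type and 3.13, 3.45, 3.96 and 3.38 in VRK1-deficient replicates 1 to 4 with probe A_51_P142196. The wild type arrays were nearly equal and lay inside the wider VRK1-deficient range. The change was 0.05 ± 0.17 (SE, limma adjusted p = 0.86) with a 95% interval of -0.33 to 0.43, and the second H19 probe gave 0.07 (limma adjusted p = 0.80). The direction of H19 was not stable: its change on slide 1 alone was -0.17 and on slide 2 alone 0.27. Grb10, an adaptor that binds the insulin and IGF1 receptors and restrains growth, read 2.65, 2.58, 2.98 and 2.68 in wild type and 2.80, 2.98, 2.87 and 2.65 in VRK1-deficient replicates 1 to 4 with its brightest probe, A_52_P115787. The Grb10 groups overlapped fully, with a change of 0.10 ± 0.13 (SE, limma adjusted p = 0.63) and a 95% interval of -0.19 to 0.39. Its other probes disagreed in sign, A_52_P40363 at 0.31 (limma adjusted p = 0.25) and A_51_P187151 at -0.08 (limma adjusted p = 0.81). Without wild type replicate 1, A_52_P40363 was called at 0.45 (limma adjusted p = 0.046), whereas neither H19 probe nor the other Grb10 probes were.

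**Figure D2:**
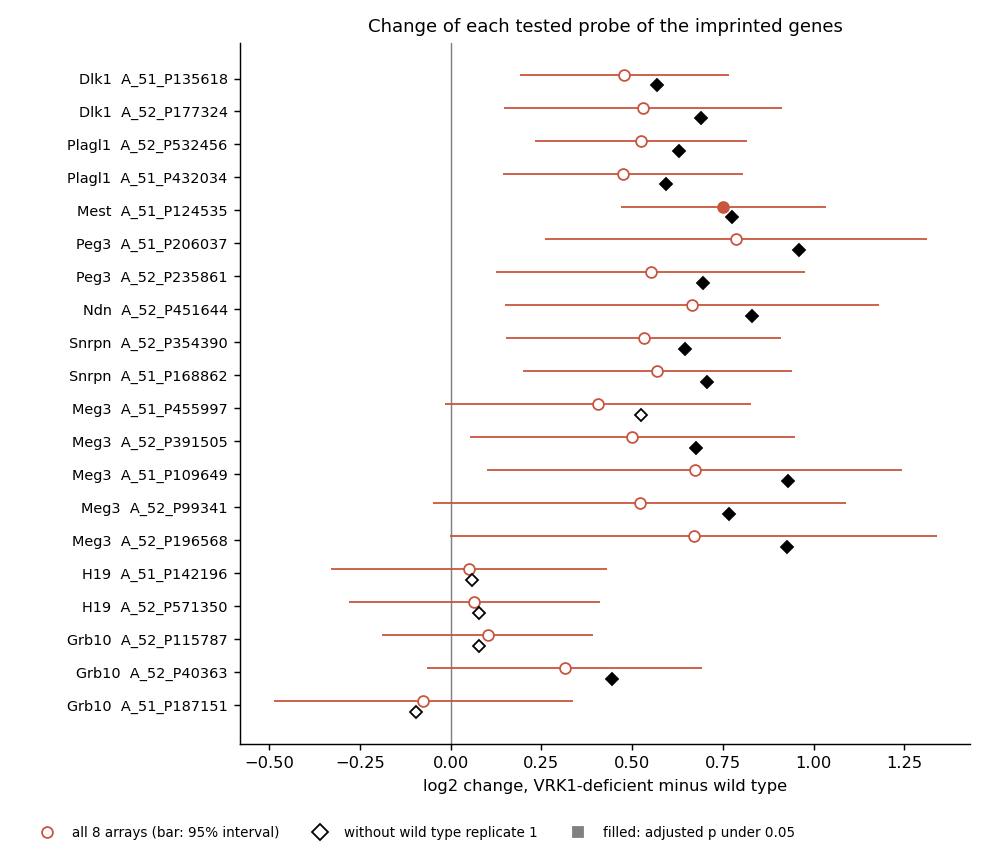
Change of each of the 20 tested member probes (log2, VRK1-deficient minus wild type) with all 8 arrays (red circles, bar the 95% interval) and without wild type replicate 1 (black diamonds), filled where the limma adjusted p was under 0.05. With all arrays only the Mest probe is filled, and without wild type replicate 1 there are 15 filled probes.

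How many members were called depended on wild type replicate 1. Without it 15 of 20 member probes and 6 of 9 genes were called, all higher, against 13.7% of tested probes called as higher and 28.9% of genes called in either direction. Those 6 genes were Dlk1, Mest, Peg3, Plagl1, Ndn and Snrpn. Leaving out any other single array left 0 of 9 genes called, except that Mest stayed called without wild type replicate 3. The changes were larger on slide 2 than on slide 1, which held wild type replicate 1, for 18 of 20 probes. Member probes were higher in VRK1-deficient testes for 15 of 20 on slide 1 alone and 18 of 20 on slide 2 alone. The methods' t-test, run on the same values, gave 10 of 20 member probes at a p of at most 0.05, where 26.2% of all tested probes passed, and 0 of 20 after Benjamini-Hochberg adjustment.

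Grouped by the parental copy they are expressed from, a grouping made after the values were seen, the 6 paternally expressed members had a median change of 0.60, ranging from 0.48 to 0.79. The 3 maternally expressed members had a median of 0.10, with Meg3 at 0.41, Grb10 at 0.10 and H19 at 0.05. The ranges of the brightest probes did not overlap, but the dimmer Meg3 probes, at 0.50 to 0.67, fell inside the paternal range. The difference between these groups was not tested. From a list of 64 further imprinted genes, 20 were classed as paternally and 15 as maternally expressed, and the others were left without a class. Of the classed genes, 13 of 19 tested paternal ones were higher with a median of 0.22, and 9 of 14 tested maternal ones were higher with a median of 0.18.

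Dlk1 and Meg3 were set beside the other 7 members because they lie near the trapped gene. In the mm7 coordinates of the probes, Dlk1 was 3.42 Mb from Vrk1 and Meg3 3.51 Mb, and 89.2 kb separated Dlk1 from Meg3. The mean change of Dlk1 and Meg3 was 0.44, and that of the other 7 genes 0.49 with a range of 0.05 to 0.79. Over probes the medians were 0.52 for the 7 Dlk1 and Meg3 probes and 0.53 for the 13 other member probes. The probe means were in the opposite order to the gene means, at 0.54 for Dlk1 and Meg3 and 0.41 for the others. The changes of the chromosome 12 members therefore fell inside the range of the members on other chromosomes. Array by array, the mean of Dlk1 and Meg3 minus the mean of the other 7 genes, each centred on its wild type mean, was 0.07, -0.12, 0.31 and -0.25 in wild type and -0.11, -0.15, 0.06 and 0.01 in VRK1-deficient replicates 1 to 4. The VRK1-deficient gaps all lay within the wild type spread.

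**Figure D3:**
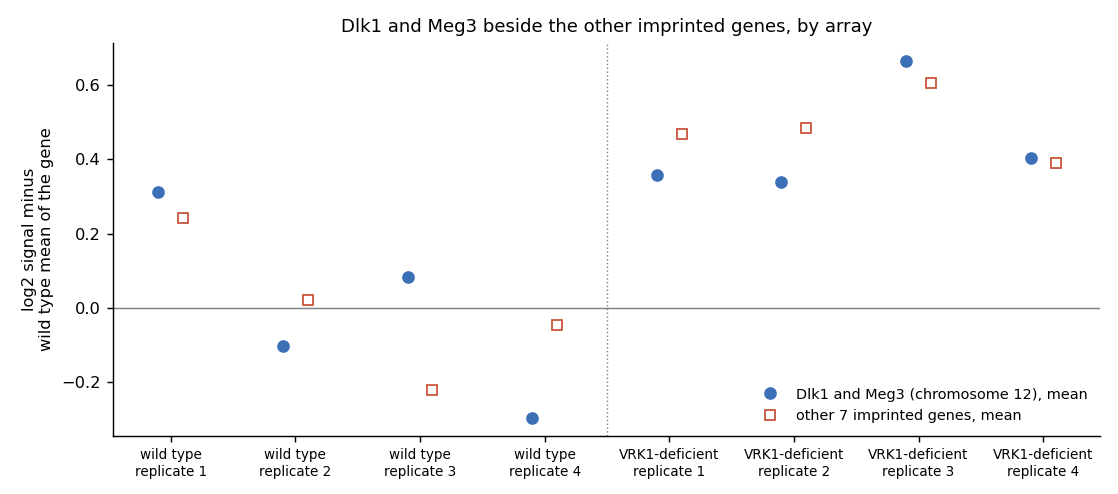
Mean signal of Dlk1 and Meg3 (filled circles) and of the other 7 imprinted genes (open squares) on each array, in log2 units relative to each gene's wild type mean. Both means are higher in all 4 VRK1-deficient arrays than in any wild type array, and wild type replicate 1 is the highest wild type array for both.

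The neighbours of Vrk1 on chromosome 12 were examined from 5 Mb beyond Vrk1 to 5 Mb beyond Meg3. Leaving out Vrk1, Dlk1 and Meg3, 11 of 212 tested probes were called, or 5.19%, with 4 higher and 7 lower and a median change of -0.03. When wild type replicate 1 was left out, 57 of the 212 were called, or 26.9%. Over all tested probes the shares called were 3.66% with all arrays and 28.4% without that array. Between Vrk1 and Meg3 lay 23 further probes, of which 0 were called by limma, with 13 higher, 10 lower and a median of 0.03. They lay 1.87 to 2.99 Mb from Vrk1, and no other tested probe lay nearer to it on that side. Of those 23 probes, 1 was called without wild type replicate 1. The called probes with the largest changes all lay outside that segment. Lower were Tedc1 at -1.77, Tdrd9, which works in the germ cell piRNA pathway, at -1.47, Aspg at -1.46, Tmem179 at -1.11 and Trip11 at -0.87. The Trip11 value is that of probe A_52_P45175, and its other tested probes, at -0.56, -0.52, -0.17 and 0.06, were not called. Higher were the protease inhibitor genes Serpina3g at 1.00 and Serpina3c at 0.88, and lower was Dicer1, the microRNA-processing enzyme, at -0.75. The second tested probe of Dicer1, at -0.55, and that of Aspg, at -0.88, were not called (limma adjusted p = 0.11 and 0.053). Leaving out any one array other than wild type replicate 1 ended each of the calls named above except that of Tedc1. The limma adjusted p of Tedc1 then ran from 0.0098 to 0.11.

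**Figure D4:**
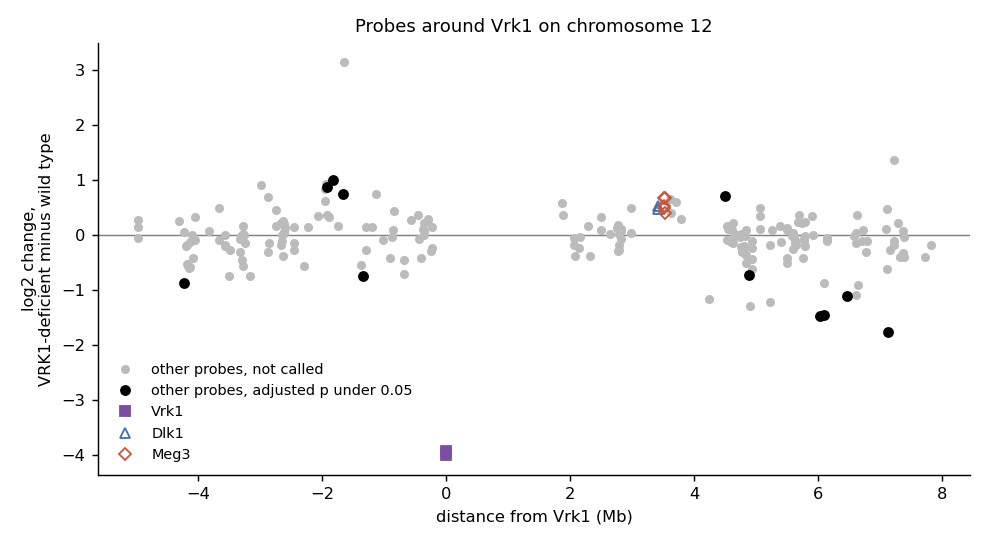
Change of each tested probe (log2, VRK1-deficient minus wild type) against its distance from Vrk1 in Mb, with called probes in black. Both Vrk1 probes lie near -4, and the Dlk1 and Meg3 probes lie between 0.41 and 0.67. The other probes between Vrk1 and Meg3, none nearer to Vrk1 than 1.87 Mb, scatter around 0.

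Other imprinted genes were taken from a list of 64, of which 50 were tested. By brightest probe 33 were higher and 17 lower, with a median change of 0.17, and 1 was called. That gene was Dcn, which encodes decorin, a collagen-binding proteoglycan of connective tissue that is imprinted in the placenta. Dcn read 5.64, 5.47, 5.47 and 5.41 in wild type and 6.14, 5.99, 6.13 and 5.96 in VRK1-deficient replicates 1 to 4, a change of 0.56 ± 0.11 (SE, limma adjusted p = 0.045) with no overlap. The call was lost when any one array other than wild type replicate 1 was left out (limma adjusted p from 0.060 to 0.15). Of the 50 genes, 13 were called higher and 10 lower without wild type replicate 1. The shares of all genes to set beside this and the later lists are 4.09% called with all arrays and 28.9% without that array.

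Rian, Mirg and Dio3, which lie in the same domain as Dlk1 and Meg3, were named for their position after their values were seen, and none of the 3 was called with all arrays. The non-coding RNAs Rian and Mirg, which lie beyond Meg3 and share its maternal expression, had changes of 0.41 ± 0.19 (SE, limma adjusted p = 0.19) and 0.61 ± 0.19 (SE, limma adjusted p = 0.086). A dimmer Rian probe, A_52_P102630, gave 0.65 ± 0.26 (SE, limma adjusted p = 0.15), with no overlap between genotypes. Mirg read -1.76, -2.02, -2.58 and -2.29 in wild type and -1.70, -1.69, -1.23 and -1.61 in VRK1-deficient replicates 1 to 4, without overlap but with wild type replicate 1 adjoining the VRK1-deficient values, and it was called without that array at 0.74 (limma adjusted p = 0.017). Dio3, which encodes the deiodinase that inactivates thyroid hormone, read -2.96, -1.72, -1.42 and -2.05 in wild type and -3.34, -3.21, -2.86 and -3.36 in VRK1-deficient replicates 1 to 4. Its change was -1.16 ± 0.30 (SE, limma adjusted p = 0.060), with wild type replicate 1 inside the VRK1-deficient range, and leaving out that array gave a called change of -1.46 (limma adjusted p = 0.0035). Igf2, the growth factor that shares enhancers with H19, had a change of 0.29 ± 0.13 (SE, limma adjusted p = 0.19).

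Imprint regulators, the enzymes and factors that write or protect methylation marks, were represented by 17 tested genes. Of these, 6 were higher and 11 lower, with a median change of -0.21, and 1 was called. The changes ran from -2.34 to 0.54, and the gene with the largest fall was not called. Leaving out wild type replicate 1 gave 2 called higher and 6 lower. Dnmt3b, a de novo DNA methyltransferase, fell by 1.05 ± 0.22 (SE, limma adjusted p = 0.047), from 0.88, 1.77, 1.90 and 1.65 in wild type to 0.29, 0.76, 0.57 and 0.39 in VRK1-deficient replicates 1 to 4. The groups did not overlap, wild type replicate 1 was the lowest of its group, and the call was lost without any one of the other 7 arrays. Its direction was opposite to that of the members.

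Growth pathway partners of the members, including IGF receptors, IGF-binding proteins and Notch receptors, gave 18 tested genes with a median change of 0.27. Of these, 2 were called higher and 1 lower, and 7 higher and 2 lower when wild type replicate 1 was left out. Igfbp3, an IGF carrier, rose by 0.75 ± 0.16 (SE, limma adjusted p = 0.047), and Lpar1, a lysophosphatidic acid receptor, by 0.63 ± 0.13 (SE, limma adjusted p = 0.047). Igfbp2, another IGF carrier, fell by 0.80 ± 0.18 (SE, limma adjusted p = 0.049). These 3 calls too were lost without any one array other than wild type replicate 1.

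Cell type markers also shifted between the genotypes, in a direction that differed by list. The RNA came from whole testes, so fewer cells of a type and less RNA per cell cannot be told apart. All 10 germ cell markers were lower in VRK1-deficient testes, with a median change of -0.91, and 1 of them, Sall4, was called, against 9 called lower without wild type replicate 1. Of 12 Sertoli cell markers, 10 were higher with a median of 0.42 and 0 were called by limma, although 8 were called higher and 1 lower without wild type replicate 1. Their summed signal was 239 to 352 times the 75th percentile in wild type and 315 to 372 in VRK1-deficient arrays, with wild type replicate 1 at 352. Of 9 interstitial mesenchyme markers, 8 were higher with a median of 0.37, and Pdgfra, Lum and Mgp were called. Leaving out wild type replicate 1 gave 6 called higher and 1 lower in that list. Their summed signal was 208 to 257 in wild type and 258 to 289 in VRK1-deficient arrays, wild type replicate 1 being at 257. The sum weighs bright genes most. By mean log2 signal wild type replicate 1 was the lowest array, at 2.75. The other wild type arrays were at 2.79 to 2.91 and the VRK1-deficient arrays at 3.04 to 3.29. Of 10 Leydig cell markers, 7 were higher with a median of 0.36 and 1, Akr1c14, was called, against 5 without wild type replicate 1, and the sums were 46.5 to 68.7 in wild type and 63.3 to 78.7 in VRK1-deficient arrays. The part of these marker shifts in the changes of the imprinted genes was not tested.

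The remaining marker lists shifted less. The 8 peritubular myoid markers had a median of -0.07, with 1 called lower with all arrays (Cnn1) and 1 without wild type replicate 1, and summed signals of 245 to 309 in wild type and 221 to 287 in VRK1-deficient arrays. The 8 macrophage markers had a median of 0.09 and the 8 endothelial markers 0.25, with 0 called by limma in either list. Leaving out wild type replicate 1 gave 1 endothelial marker called higher and 0 macrophage markers by limma. Of 6 epididymis genes 1, Lcn9, passed the filter on dim probes, far below the 75th percentile at -5.67 to -4.75, not called with all arrays and called higher without wild type replicate 1, and the other 5 did not pass. All 65 markers of testis cell types passed that filter.

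**Figure D5:**
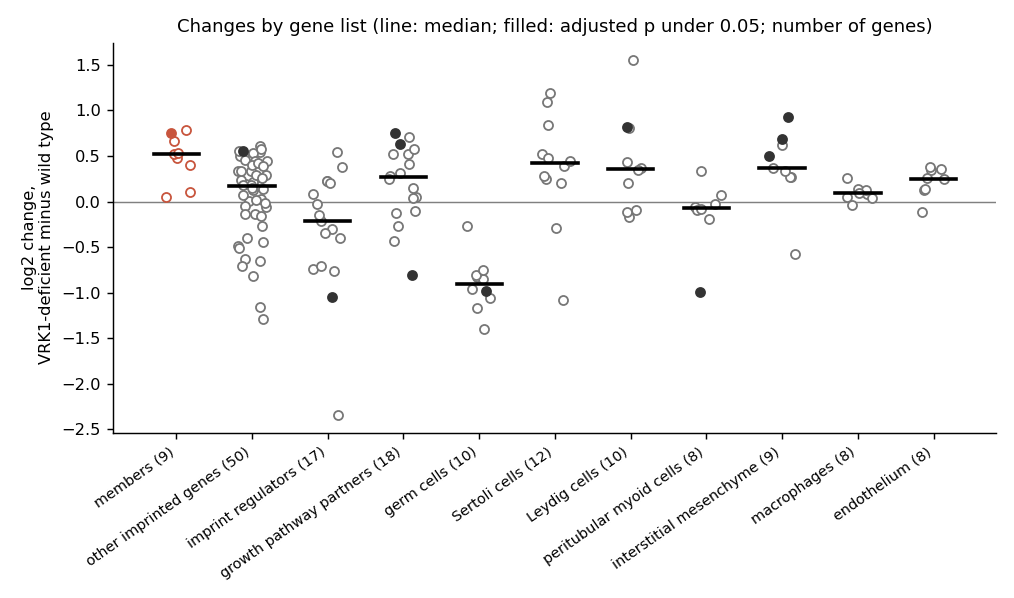
Change of each tested gene by list (log2, VRK1-deficient minus wild type, brightest probe), with the median as a line, called genes filled and the number of genes in brackets. The 9 imprinted genes have a median of 0.53. The medians of the Sertoli cell, Leydig cell and mesenchyme lists lie above 0, though each list has genes below 0. The medians of the other imprinted, growth partner, endothelium and macrophage lists are also above 0, and all germ cell genes lie below 0.

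The genes most like Dlk1 across the 8 arrays were found by the mean absolute difference of log2 signals, each centred over the arrays, among 17935 other genes. They were P3h3, Pold4, AF085738, Slc38a4 and Tspyl3, at 0.044 to 0.054 log2 units from Dlk1. Slc38a4, an amino acid transporter, is itself imprinted and had a change of 0.42 (limma adjusted p = 0.069), called without wild type replicate 1 (limma adjusted p = 0.015). Plagl1 stood at rank 86 and Meg3 at rank 935, with differences of 0.086 and 0.13. Nearest to Meg3 were Bmp1, Cmtm7, Samd14, C230096K16Rik and Pnisr, at 0.069 to 0.082. Dlk1 was at rank 253 from Meg3. This likeness rests on 8 arrays in which the genotype and wild type replicate 1 are shared by all genes.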

How the data were processed

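Total RNA from testes at postnatal day 8 was labelled with Cy3 and hybridised to Agilent whole genome mouse arrays, 1 array for each of 4 wild type and 4 VRK1-deficient biological replicates. The authors deposited scanner files made with Agilent Feature Extraction 9.5.3.1 (version per the submitters' processing notes), which hold a background-subtracted processed intensity for each spot. The deposited value table held the same intensity values for every spot compared, and was not used further. Here control and outlier spots were left out and spots of a probe averaged. Intensities were divided by the 75th percentile of each array and taken to log2. The 26948 probes that the scanner flagged as well above background on 4 or more of the 8 arrays were tested with limma 3.58.1 (lmFit and eBayes, no block, R 4.3.3), with Benjamini-Hochberg adjustment and a threshold of 0.05, and the fit was tested on simulated data. The number of arrays limits the precision.

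Genes were named through RefSeq (GRCm38.p6) from the accession of the probe. Otherwise the gene name in the files was matched to a RefSeq symbol or synonym, and kept as it was where neither matched. The brightest probe stood for a gene. The members and gene lists were chosen with earlier results of these data known. The text names all member probes and Vrk1, the called genes of the other imprinted, regulator and partner lists (at most 8), the 8 called chromosome 12 probes with the largest changes and the 5 genes nearest to Dlk1 and to Meg3. Genes named outside that rule were chosen after their values were seen. Alternatives covered background correction by normexp (offset 50), quantile normalization, unscaled signals, filters on dim probes, the slide and replicate number as blocks, variance settings, the methods' t-test and leaving out each array.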

Additional observations from a re-analysis of the deposited data

Results flagged for a closer look

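Among the member and Vrk1 probes, 2 of 44 groups of 4 arrays had an array far from its neighbours, measured as the gap to the nearest array over the range of the group. In about 1 in 20 groups chance alone gives such a gap. H19 A_51_P142196 in wild type had a ratio of 0.916, with replicate 3 at 3.33 and the nearest array at 3.46, in a group whose values were otherwise almost equal. Ndn A_52_P451644 in VRK1-deficient testes had a ratio of 0.873, with replicate 4 at 2.33 and the nearest array at 2.48. Both ratios arose in groups with little spread.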

How the results depend on the processing

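Over the 20 member probes, 343 of 389 alternative values kept their direction and their side of the threshold, 23 newly passed it, 11 no longer did and 12 changed sign. The sign changes were confined to Grb10, H19 and 1 Meg3 probe. With signals not scaled between arrays, which moved the median of all probes from 0.04 to -0.14, Grb10 A_52_P115787 was -0.078, H19 A_51_P142196 -0.13 and H19 A_52_P571350 -0.11. On slide 1 alone Grb10 A_52_P40363 was -0.034, H19 A_51_P142196 -0.17, H19 A_52_P571350 -0.14 and Meg3 A_52_P196568 -0.0091, and on slide 2 alone Grb10 A_52_P115787 was -0.074. Normexp turned Grb10 A_51_P187151 to 0.13. With arrays left out in turn it ran from -0.22 to 0.072, with the sign turned without wild type replicate 4, and H19 A_51_P142196 ran from -0.11 to 0.16 and H19 A_52_P571350 from -0.062 to 0.16, with both signs turned without VRK1-deficient replicate 3. The cause of these changes was not tested.

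Of the 9 imprinted genes 3 were called with an intensity trend and robust variances or with normexp, 2 when a probe had to be well above background on all 8 arrays, and 0 with the t-test, without the filter on dim probes, with unscaled signals or on either slide alone, where fewer arrays entered. Leaving out each array in turn gave 0 to 6, the highest without wild type replicate 1. For the other imprinted genes the count of 1 became 6 with trend and robust variances, 3 with normexp, 2 with each gene as its probe mean, with unscaled signals, on slide 2 alone or with the strict filter, and 0 without the filter, with quantile normalization or on slide 1 alone, and 0 to 23 with arrays left out. The 11 calls among the 219 probes around Vrk1, here with Dlk1 and Meg3 included, became 18 with trend and robust variances, 2 with the t-test, 1 without the filter, 0 on slide 1 alone and 0 to 63 with arrays left out. Over all probes the 986 calls became 1915, 162 and 17 under the first 3 of these settings, 641 with the slide as a block, 3 on slide 1 alone and 3 to 7655 with arrays left out. Vrk1 A_51_P102339 was -3.67 on slide 1 alone (limma adjusted p = 0.064).

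With the replicate number as a block, 2275 probes, 2 of the 9 imprinted genes, 4 of the other imprinted genes and 22 probes around Vrk1 were called. Deviations of same-numbered arrays correlated at 0.47, 0.073, 0.19 and -0.14 over 26941 probes. Wild type replicates 1, 2 and 3 each correlated best with the VRK1-deficient array of the same number. Wild type replicate 4 correlated best with an array of another number. The labels do not say whether the numbers pair samples, and they were not taken as a pairing.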
